A study of Mus musculus with 8 samples.

Results

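Mature neutrophils without miR-223 were compared with wild-type ones on the 4 arrays of day 8, out of 8 arrays in the whole series. The arrays were chosen by their labels alone: 2 carried RNA of miR-223 null cells and 2 that of wild-type cells. All 4 cultures were started from progenitors of mouse bone marrow and kept in SILAC-IMDM, a medium made for isotope labelling of proteins. They received G-CSF (granulocyte colony-stimulating factor) together with SCF (stem cell factor, which binds c-Kit) for 6 days, then went without SCF for 42 hours, and cells lacking c-Kit on their surface but carrying the granulocyte antigen Gr-1 were sorted. The other 4 arrays held progenitors of both genotypes at day 4 of culture, sorted in the opposite way (c-Kit present, Gr-1 absent). The labels do not say how the miR-223 allele was inactivated, what strain, sex or age the mice had, or whether replicates were separate animals, so the p-values measure the spread between arrays, which may be technical.

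MicroRNAs are short RNAs that guide Argonaute proteins to messenger RNAs, mainly through pairing of the bases near their 5′ end, called the seed, and thereby lower translation and shorten the life of the message. miR-223 is made chiefly in myeloid cells and becomes abundant as granulocytes mature. Mice that lack it have more neutrophils, which respond more readily to stimulation. The comparison asks how messenger RNA levels differ in mature neutrophils that formed without this microRNA.

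The molecule that the null cells lack is shown to make clear which sequence defines its possible targets. RefSeq (GRCm38.p6) places its hairpin on the plus strand at chrX:96242817-96242926, inside the long noncoding RNA gene F630028O10Rik. All 3 entries sought, the hairpin and both mature arms, were in the RefSeq table. The hairpin is given with the 3p arm in capitals, and the arms with the seed (bases 2 to 8) in capitals.
Mir223 hairpin: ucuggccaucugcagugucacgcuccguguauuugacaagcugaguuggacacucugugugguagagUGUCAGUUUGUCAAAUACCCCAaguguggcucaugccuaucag
mmu-miR-223-3p: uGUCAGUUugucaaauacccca
mmu-miR-223-5p: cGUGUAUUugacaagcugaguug

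Each arm had a seed of its own. None of the other mature miRNAs, out of 1679 names in the table, shared bases 2 to 8 with the 3p arm (0 matches) or with the 5p arm (0 matches). A messenger RNA site that pairs with the 3p seed reads AACUGAC, and AACUGACA where an A follows. In the gene order of the reference the next protein-coding genes on 1 side of Mir223 are Vsig4 (a complement receptor of macrophages), Hsf3 (a heat shock factor) and Heph (an iron oxidase). On the other side the 5 nearest entries are noncoding genes and pseudogenes.

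The arrays measured 45101 probe sets, of which 64 were controls. Values are log2 signal as deposited, so a difference of 1 is 2-fold. The 22519 of the other 45037 probe sets whose mean over the 8 arrays was at or above the median of such means (5.51) were tested. None of the identifiers (0) occurs in the gene reference used here, and the files do not pair them with genes, so probe sets stand for themselves. The known miR-223 targets, granule genes and cell type markers could therefore not be looked up, and the neutrophil label rests on the sort. The transcripts that can be named are those of the mouse control probe sets.

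The 4 arrays of day 8 parted by genotype. In a principal component analysis of these arrays alone the first component held 59.2% of the variance, with the null arrays at 18.2 and 17.0 and the wild-type arrays at -15.4 and -19.7. The second component (22.1%) lay mainly between the wild-type replicates (-14.8 and 13.3). The SD over probe sets of the log2 difference between 2 arrays was 0.202 for the wild-type replicates and 0.188 for the null replicates, against 0.257 to 0.280 for the 4 pairs across genotypes. Pairs across genotypes differed by 1.5-fold or more at 3.06% to 4.14% of probe sets, and replicate pairs at 0.973% (wild-type) and 1.08% (null).

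In null neutrophils 921 probe sets were higher and 274 lower, by limma at an adjusted p (Benjamini-Hochberg over all 22519) below 0.05. These are 4.09% and 1.22% of those tested, together 5.31%. The counts and their balance depended on scaling and on single arrays: scaled to the hybridization controls, 326 were higher and 368 lower, and without the first null array of day 8 the calls numbered 355 in all. The counts by size, level and probe type that follow are those of the values as deposited. Rises had a median of 1.42-fold, with the middle 50% of them between 1.32-fold and 1.60-fold, and falls also had a median of 1.42-fold (1.30-fold to 1.58-fold). Rises of 2-fold or more numbered 54 and falls of that size 15. In all 1195 called probe sets the 2 null arrays lay entirely above or below the 2 wild-type arrays, whereas over all tested probe sets the null arrays lay above in 30.4%, below in 20.6% and overlapped in 49.0%.

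**Figure D1:**
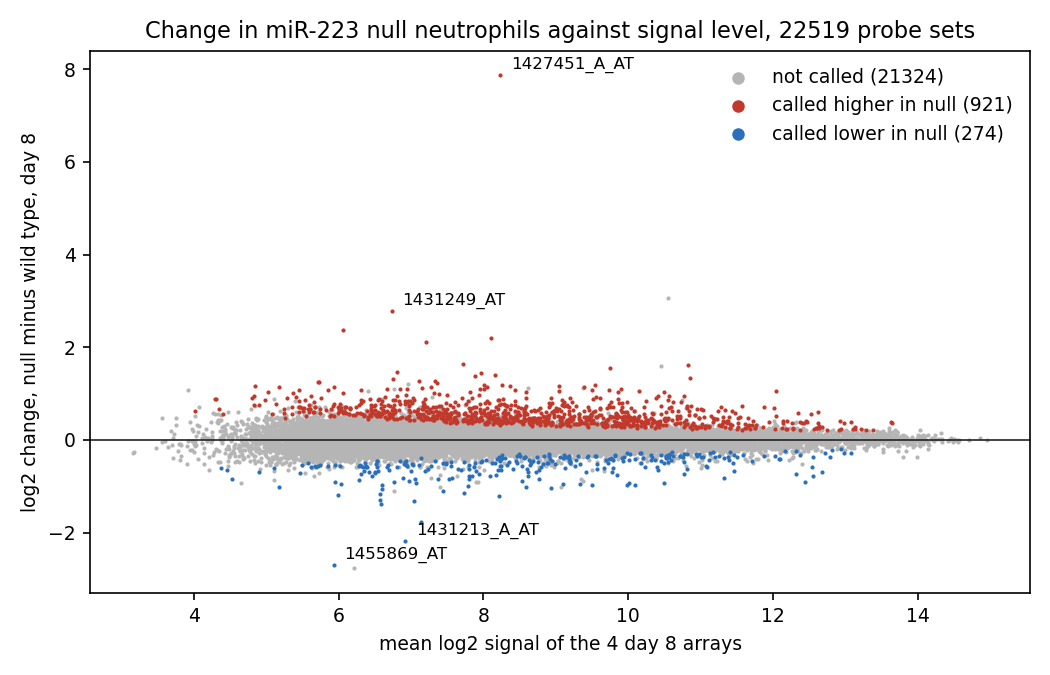
The log2 change of null minus wild type at day 8 (vertical axis) against the mean log2 signal of the 4 day 8 arrays (horizontal axis), 1 point per tested probe set; red and blue points are the 921 called higher and the 274 called lower in null. Nearly all called changes lie within 1 log2 unit of 0, and 1427451_A_AT stands far above the rest at 7.87.

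The probe set with the largest rise was 1427451_A_AT. Its log2 signal was 4.41 and 4.19 on the wild-type arrays and 12.08 and 12.26 on the null arrays. Both wild-type values lay near the lower quartile of their arrays (3.99 and 4.00) and both null values lay far above it. The log2 change was 7.87 (SE 0.20, limma adjusted p = 1.4e-08, n = 2 per group), or 233-fold; a fold over so low a wild-type signal depends on the background correction. It passed the filter through its null arrays, so its place among the tested probe sets was decided by the groups in which it was high. The day 4 arrays enter the day 8 comparison only through the filter and the shared estimate of the spread. On them this probe set read 4.61 and 3.85 in wild type and 11.12 and 11.16 in null (log2 change 6.91, SE 0.20). The difference between the null effects of the 2 days was 0.96 (95% interval 0.34 to 1.57, limma adjusted p = 0.12), so it was not called. Among the fits that kept all 8 arrays, it was called only when scaled to the poly-A controls (0.68, limma adjusted p = 0.029). Its size and its call also depended on single arrays: without the first or the second wild-type array of day 4 the difference was 0.58 or 1.34.

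The next rise was that of 1431249_AT. It read 5.37 and 5.32 in wild-type neutrophils and 7.84 and 8.40 in null neutrophils. The wild-type arrays were close together just under the filter value, both null arrays lay above it, and the groups did not overlap. The log2 change was 2.78 (SE 0.18, limma adjusted p = 3.8e-05, n = 2). At day 4 the change was 0.92 (SE 0.18, limma adjusted p = 0.026), from 5.86 and 5.53 in wild type to 6.57 and 6.65 in null. That day 4 call was lost without the intensity trend (limma adjusted p = 0.062) and in some fits that left out 1 array. Without the first or the second wild-type array of day 4 the change there was 1.09 or 0.75. The null effect was larger at day 8 by 1.86 (SE 0.25, adjusted p = 0.0097). Such a difference between days was called for 1.66% of all tested probe sets.

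The largest fall was that of 1455869_AT, which read 6.66 and 7.91 in wild-type neutrophils and 4.58 and 4.60 in null neutrophils. The groups did not overlap, and the wild-type arrays lay much farther apart than the null arrays, which were nearly equal and dim. The log2 change was -2.69 (SE 0.46, limma adjusted p = 0.0077, n = 2). Its null means lay below the filter value on both days (4.61 and 4.59), so it passed the filter through its wild-type arrays, in which it was high, and the size of the fall depends on the background correction. Over 20 alternatives the limma adjusted p reached at most 0.082, and the call was lost in 3 of them. These left out the first null array of day 8 (-2.69, adjusted p = 0.057) or the second wild-type array of day 8 (-2.07, adjusted p = 0.082), or used robust variance estimates (adjusted p = 0.067). 1431213_A_AT followed, with 7.25 and 8.77 in wild type and 5.69 and 5.97 in null (log2 change -2.18, SE 0.54, adjusted p = 0.045, n = 2). It was called in 12 of 20 alternatives, with adjusted p up to 0.30, and its change was -1.42 without the second wild-type array of day 8. Both probe sets had the higher wild-type value in replicate 2 at day 8 and again at day 4 (10.19 against 8.59, and 10.54 against 8.64). On the day 4 arrays the null values were 4.60 and 4.63 for 1455869_AT and 5.55 and 5.82 for 1431213_A_AT, below both wild-type arrays. The log2 changes there were -4.78 (SE 0.46, adjusted p = 0.00058) and -3.91 (SE 0.54, adjusted p = 0.0052). These are larger falls than at day 8, by 2.09 and 1.73, but the differences between days were not called (limma adjusted p = 0.13 and 0.30). Both were called when scaled to the poly-A controls (adjusted p = 4.2e-06 and 0.00046), and that of 1455869_AT also when scaled to the hybridization controls (adjusted p = 0.045) and without the first wild-type array of day 4 (adjusted p = 0.034).

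**Figure D2:**
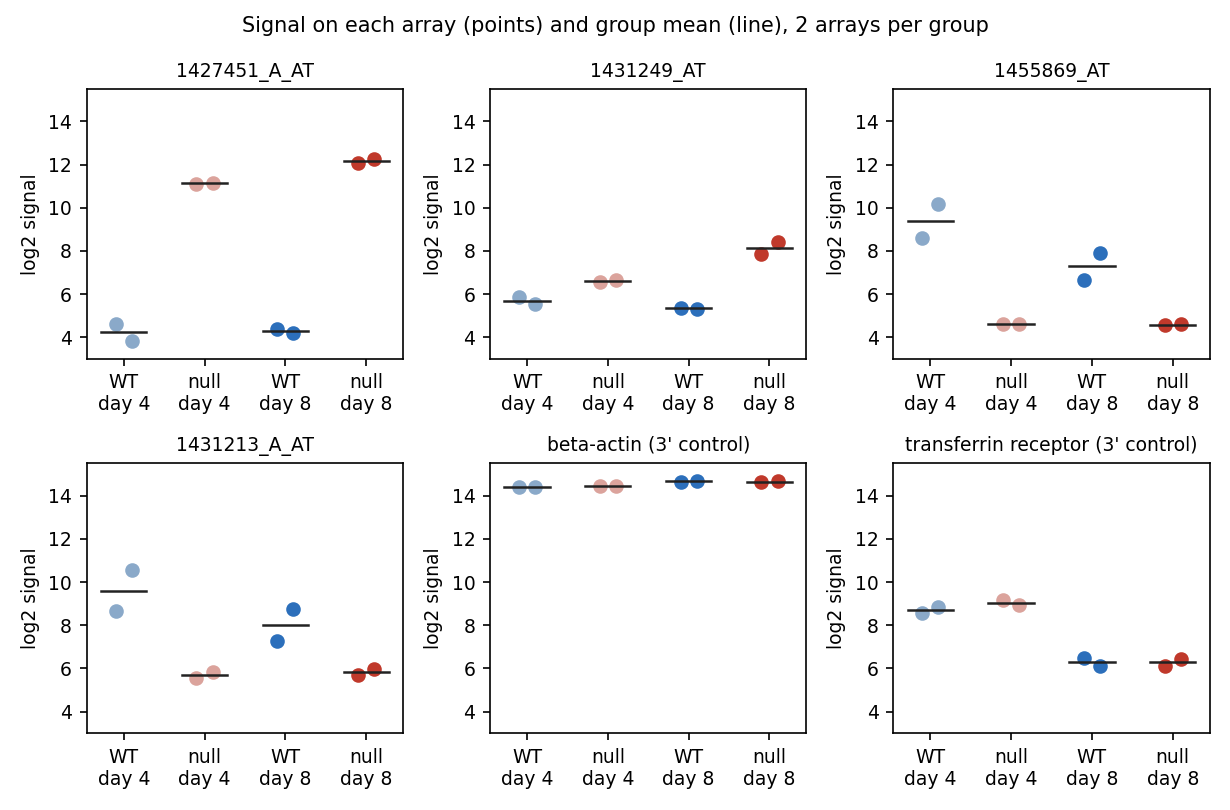
Log2 signal of 4 probe sets and 2 control transcripts on each of the 8 arrays (points) with the group means (lines); WT is wild type and null is miR-223 null. The null arrays stand apart from wild type for the 4 probe sets on both days, and the beta-actin and transferrin receptor points of both genotypes lie together at day 8.

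The probe sets ranked 3 to 10 in each direction were smaller changes. The 8 rises were 2.70-fold to 5.15-fold, with wild-type means of 4.88 to 10.03 and null means of 7.25 to 11.64; the wild-type mean of 1 of them lay under the filter value. The 8 falls were 2.21-fold to 3.40-fold, with wild-type means of 6.58 to 8.81 and null means of 5.39 to 7.61; the null mean of 1 of them lay under the filter value. Their adjusted p-values lay between 4.0e-06 and 0.0031 (limma, n = 2 per group). Of the 8 rises 6 were also called higher in null at day 4, where 2.72% of all tested probe sets were called in either direction, and 4 of the 8 falls were also called lower there. Calls on the 2 days use the same estimate of the spread for each probe set and are not independent. The difference between the days, which includes the day 8 change that ranked them, was called for 5 of these rises and 2 of these falls.

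Most of the large changes were in probe sets at or above the filter value in both genotypes. A probe set below it in 1 genotype passed the filter through its other groups, so its difference is in part a matter of that choice. Of the 54 rises of 2-fold or more, 42 had both day 8 means at or above the filter value, and 12 had a wild-type mean below it. Of the 15 falls of that size, 12 had both means at or above it and 3 had a null mean below it. Another 12 probe sets differed by 2-fold or more without being called, 8 higher and 4 lower in null. Of these 12, 7 had groups without overlap, near the share over all tested probe sets (30.4% above and 20.6% below). The largest of them was split within the wild type, and its groups overlapped: it read 5.96 and 12.07 on the wild-type arrays and 12.05 and 12.10 on the null arrays (log2 change 3.06, SE 1.38, adjusted p = 0.25, n = 2).

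The tested probe sets were divided into 4 classes of nearly equal size by their mean signal, and the share called was higher in each brighter class. It was 2.06% in the dimmest class (mean 5.51 to 6.55), 4.74% in the second, 6.38% in the third and 8.05% in the brightest (mean above 9.29). The median SE over the same classes was 0.147, 0.126, 0.0988 and 0.0764, so smaller changes passed the test at high signal. The median called rise was 1.61-fold in the dimmest and 1.32-fold in the brightest class, and the median called fall 1.51-fold and 1.30-fold. Rises made up 65.5% of the calls in the dimmest class and 76.2% to 80.5% in the others. None of the falls in the brightest class reached 2-fold (0 of 108), and 12 of its 345 rises did.

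Probe sets are also marked by what their probes detect. The suffix A marks probe sets that read several transcripts of 1 gene, S those shared between genes and X those with probes that can bind unrelated sequences. Calls made up 5.95% of the 3227 A probe sets, 6.30% of the 1477 S, 5.83% of the 1476 X and 5.04% of the 16339 without such a mark. The X probe sets had the lowest share of rises among their calls, 53 higher and 33 lower (61.6%), against 78.1% to 79.6% in the other classes. Whether these shares differ was not tested.

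The transcripts raised in null neutrophils were mostly higher in progenitors than in wild-type neutrophils. The 921 probe sets had a median of group means of 8.85 in wild-type and 8.98 in null progenitors, 8.36 in wild-type neutrophils and 8.88 in null neutrophils. In wild type 65.8% of them had a higher mean at day 4 than at day 8, where the share over all tested probe sets was 51.6%. In null the shares were 55.9% and 49.9%. The 274 lowered probe sets had medians of 8.90 in wild-type and 8.58 in null progenitors, 9.003 in wild-type neutrophils and 8.41 in null neutrophils. Of these 44.5% were higher at day 4 than at day 8 in wild type, and 56.2% in null. These comparisons share the day 8 arrays that chose the probe sets, so the shares are a description and carry no test.

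The larger rises of day 8 were more often in the same direction on the separate arrays of day 4, as a description with no test of the trend. Of the 89 smallest rises 58.4% had a positive change at day 4, where 48.6% of all tested probe sets were positive. The share was 61.9% of the next 483 rises, which end at 1.5-fold, 67.5% of the 295 from 1.5-fold to 2-fold and 81.6% of the 49 from 2-fold to 4-fold. All 5 rises of 4-fold or more were positive and called at day 4, where 2.72% of all tested probe sets were called in either direction. Of these 5, 3 had a wild-type mean at day 8 under the filter value. Those 3 passed the filter through other groups, among which are the null arrays of day 4. Among all 274 falls 80.7% were negative at day 4, compared with 64.6% of the 921 rises that were positive, while 51.4% of all tested probe sets were negative. Rises of 2-fold or more had a median log2 change of 1.14 at day 8 and 0.29 at day 4, and falls of that size -1.20 and -0.72. The 2 falls of 4-fold or more ran the other way, with medians of -2.44 at day 8 and -4.34 at day 4.

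A differing null effect on the 2 days was called for 203 of the 921 rises and 19 of the 274 falls, and for 1.66% of all tested probe sets. All 203 rises were larger at day 8, with a median log2 change of 0.63 there and -0.13 at day 4, and 182 of them were not called at day 4. Of the others, 10 were called higher in null at day 4 and 11 lower. Of the 19 falls, 18 were deeper at day 8 (median -0.60 against 0.14). These counts, directions and medians follow in part from the choice of probe sets by the day 8 change, which is itself part of the tested difference. With the same limit, a difference with the larger effect at day 8 was called for 35 of the 54 rises of 2-fold or more and 3 of the 15 falls.

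**Figure D3:**
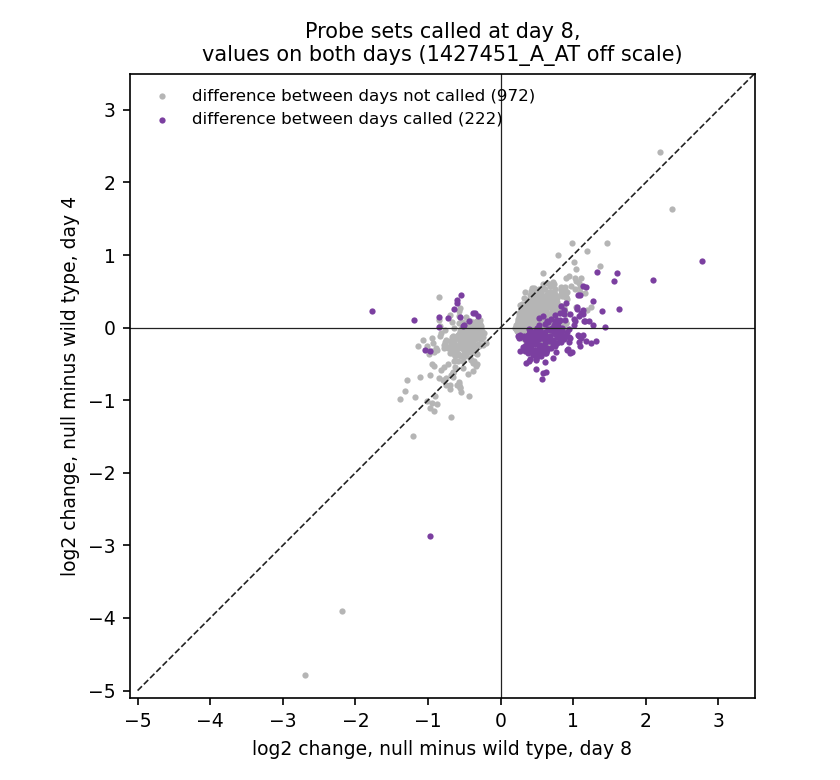
The log2 change of null minus wild type at day 8 (horizontal) and day 4 (vertical) for the probe sets called at day 8, except 1427451_A_AT, which is off scale; purple points are the 222 whose change differed between days by limma. Points on the dashed line have the same change on both days, and most purple points lie to the right of 0 and near or below 0 at day 4.

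The transcripts that could be named did not pass the test. Beta-actin, a cytoskeletal protein, read 14.65 and 14.70 in wild type and 14.63 and 14.66 in null at its 3′ control probe set. Its changes at 3 positions were -0.03 to 0.01, with 95% intervals reaching from -0.12 to 0.11. Gapdh, a glycolytic enzyme, read 14.11 and 14.10 in wild type and 14.05 and 14.08 in null at the 3′ position, and its intervals reached from -0.14 to 0.10. The genotypes overlapped at 5 of these 6 probe sets, and at the 3′ set of Gapdh the null arrays lay slightly below. Over all tested probe sets 49.0% overlapped.

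Transferrin receptor, which brings iron into dividing and erythroid cells, read 6.49 and 6.13 in wild-type and 6.12 and 6.44 in null neutrophils at its 3′ probe set. The 2 genotypes overlapped at each of its 3 probe sets (arrays between 4.45 and 6.49), and the intervals of the changes reached from -0.38 to 0.49. Overlap was found at 13 of the 19 mouse control probe sets and at 49.0% of all tested ones. Of the 19, the null arrays lay above the wild-type arrays at 2 and below them at 4. Pyruvate carboxylase, a mitochondrial enzyme, changed by -0.08 to 0.14 at 4 probe sets of low signal (arrays between 4.99 and 6.77). 18S ribosomal RNA changed by -0.03 to 0.24, with a wide upper bound of 0.87. RNA carrying the B1 repeat, a short interspersed element, read 11.45 and 11.53 in wild type and 11.40 and 11.41 in null (log2 change -0.08, 95% interval -0.22 to 0.06), and the 2 probe sets for the B2 repeat changed by -0.09 and -0.03. None of the 19 control probe sets was called (0, limma), where 5.31% of all tested probe sets were, so few or no calls among 19 would be usual. Of the 19, 0 had an unadjusted p under 0.05, and none was called in any alternative. Many of them read several positions of the same transcript and are not independent. Of the 22519 tested probe sets 4535 had an unadjusted p that small.

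**Figure D4:**
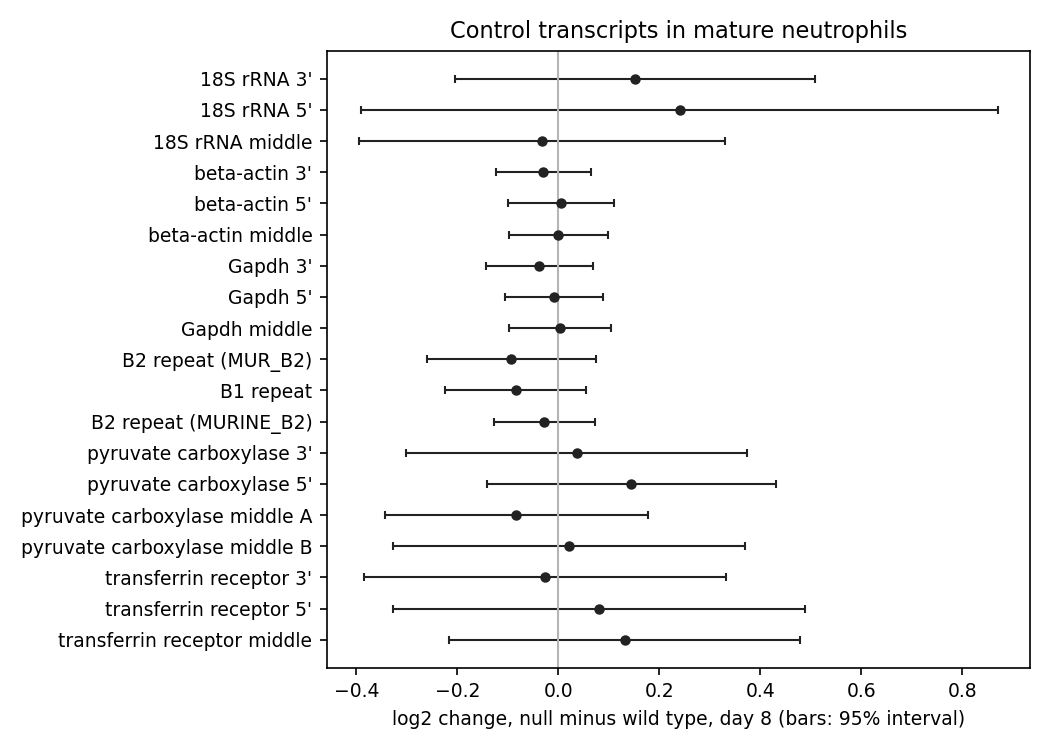
Log2 change of null minus wild type at day 8 for the 19 mouse control probe sets (points) with 95% intervals (bars). Every interval includes 0; those of beta-actin and Gapdh are the narrowest and that of 18S ribosomal RNA at the 5′ position the widest, up to 0.87.

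The balance between rises and falls depended on the scaling of the arrays. RNAs added during hybridization, at 18 probe sets, were on average 0.0925 higher on the null arrays of day 8 (log2; 15 of 18 higher), with array means of 9.95 and 10.13 in wild type and 10.09 and 10.18 in null. RNAs with a poly-A tail, added for labelling, at 24 probe sets, were 0.0553 higher (8.49 and 8.38 in wild type, 8.39 and 8.58 in null). For both sets of added RNA the values of the genotypes overlapped between arrays. Scaled to the first set, the median change of all tested probe sets moved from 0.02 to -0.07, with 326 called higher and 368 lower (47.0% higher, against 77.1% as deposited). Scaled to the second, 624 were higher and 493 lower (55.9% higher). As a sign of RNA quality, the log2 signal of beta-actin was higher at the 3′ than at the 5′ position by 0.10 and 0.17 in wild type and by 0.10 on both null arrays. The part of RNA quality and of added RNA in the calls was not tested.

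A smaller set of changes was kept under 4 other normalizations and without any 1 of the 4 arrays. Of the 1195 calls, 261 were kept in the same direction whichever day 8 array was left out, and 245 of those also under quantile normalization, equal medians, cyclic loess and scaling to the hybridization controls. These 245 were 196 rises and 49 falls, with medians of 1.74-fold and 1.81-fold, the smallest of them 1.30-fold. They held 50 of the 54 rises and 12 of the 15 falls of 2-fold or more. Of these 196 rises 56 were also called higher at day 4, and of the 49 falls 22 were called lower there, where 2.72% of all tested probe sets were called in either direction. Both days share 1 estimate of the spread for each probe set, so the day 4 calls are not independent of the day 8 calls. A further 499 calls, with a median of 1.34-fold and none of 2-fold, were lost in each of the 4 leave-outs. Leaving out the first or the second null array of day 8 gave 355 or 523 calls in all. Leaving out the first or the second wild-type array of that day gave 608 or 401.

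**Figure D5:**
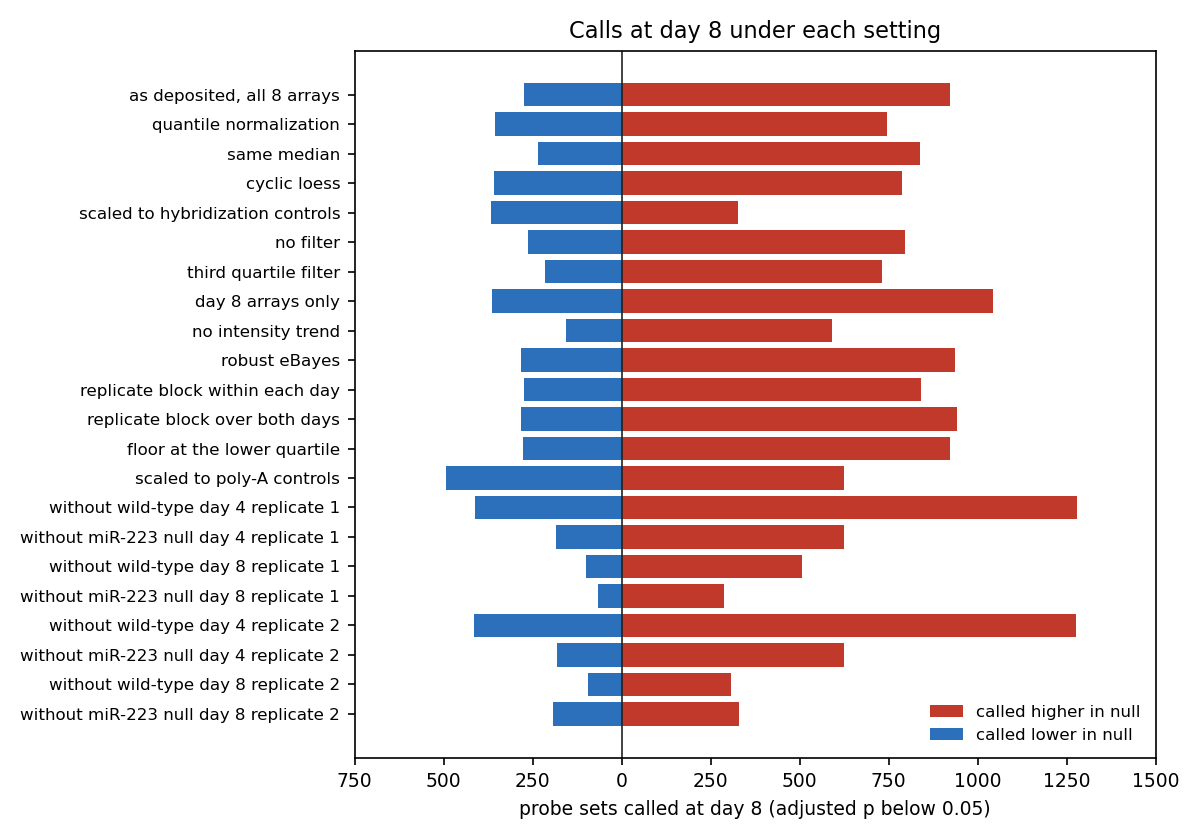
Number of probe sets called higher (red, to the right) and lower (blue, to the left) in null neutrophils at day 8, as deposited and under each alternative setting. As deposited 921 are higher and 274 lower; the counts are smallest without null day 8 replicate 1 (288 and 67), and falls outnumber rises when arrays are scaled to the hybridization controls (326 and 368).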

How the data were processed

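RNA of 8 samples was hybridized to Affymetrix arrays after biotin labelling of total RNA, per the labels' protocols. The authors deposited 1 value per probe set and array, on a log2 scale as read from the values. GCOS is named without a version in the submitters' processing notes. For probe set summary, background correction and normalization, the method is not given in the sources used here. A floor from background correction would change folds of dim probe sets, and normalization removes a change in total RNA.

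Values were used as deposited. Control (AFFX) rows were left out, and probe sets with a mean of at least 5.51 were tested. limma 3.58.1 in R 4.3.3 fitted the 4 group means over 8 arrays (lmFit, eBayes with an intensity trend, 4 residual degrees of freedom), since 2 arrays against 2 give too little spread of their own. Tests were two-sided, with Benjamini-Hochberg adjustment over all probe sets tested, called below 0.05. The 19 mouse controls came from a fit of tested and control rows together. An exact permutation test of 2 arrays against 2 cannot go below p = 0.333. The number of arrays limits precision: the median SE of a change was 0.115. Steps were tested on simulated data.

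Named are the first 2 probe sets per direction by size among those called without overlap of the groups. The comparison, lists and rule were chosen with earlier results of these data known. The gene lists could not be applied without gene names. The number of 21 alternatives includes 1, scaling to poly-A controls, added after seeing the data. Sequences are RefSeq's. Descriptions were computed in Python 3.11.15 with pandas 2.3.3.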

Additional observations from a re-analysis of the deposited data

Results flagged for a closer look

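For 222 probe sets called at day 8 the null effect differed between day 8 and day 4 by the interaction test (limma, adjusted p below 0.05). Of them 203 were higher and 19 lower in null neutrophils. Their number follows in part from the choice by the day 8 change, which is part of that test. One of the 222 was 1431249_AT, with a null effect 1.86 larger at day 8 on the log2 scale (SE 0.25, limma adjusted p = 0.0097). That difference was called in each alternative in which it could be computed, with a limma adjusted p of at most 0.0495.

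Probe sets under the filter on low values hold data that the comparison did not use. When all 45037 were tested together, 85 of the 22518 below the filter were called at day 8, 46 higher and 39 lower in null. Their levels are near background, so their folds depend on its correction. Groups of 2 arrays are too small for a test of single outlying arrays.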

How the results depend on the processing

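Of 21 alternatives, most kept the counts of calls (1195: 921 higher, 274 lower) within 1.5 times. The counts fell beyond that when arrays were scaled to the hybridization controls (694: 326 higher) and without the intensity trend (747: 590 higher, 157 lower). Falls rose to 493 when scaled to poly-A controls. The total also fell beyond 1.5 times whenever any day 8 array was left out. Leaving out each of the 8 arrays in turn gave 355 to 1691 calls, 288 to 1280 higher and 67 to 414 lower. The cause of these shifts was not tested. With 1 array left in a group, its spread is assumed to be that of the other groups.

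The labels number replicates but do not say what a number marks. Deviations of same-numbered arrays correlated at -0.05 between the genotypes at day 8 (0.09 at day 4), and across days at 0.22 for the null arrays, 0.02 for the wild-type arrays, 0.12 for wild type at day 4 with null at day 8 and -0.01 for null at day 4 with wild type at day 8. Not every one exceeded 0.1, so the numbers were not taken as pairs. Some large differences between the wild-type arrays did recur by number. Of 29 that were 2-fold or more at day 8, 15 were so at day 4 in the same direction. Over all tested probe sets 0.178% differed that much at day 4 either way. The test of the difference between days does not model this. With the replicate number as a block within each day 1116 were called (841 higher, 275 lower), and as a block over both days 1225. The falls of 1455869_AT and 1431213_A_AT had limma adjusted p of 0.0018 and 0.0055 with the first block. With the second block these were 0.0023 and 0.0068. The 2-fold rises numbered 26 to 72 and the 2-fold falls 3 to 32 over all alternatives. No called single probe set and no control reversed while called. 1427451_A_AT and 1431249_AT were called in every alternative that tested them. One probe set per gene was not run, for want of gene names. Signal near background limits the folds of dim probe sets.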

Other observations

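At day 8, 29 tested probe sets differed by 2-fold or more between the wild-type arrays, 14 higher in replicate 2 and 15 in replicate 1. Of these, 24 had the same direction between the wild-type replicates of day 4, and 15 differed there by 2-fold or more in that direction, where 0.178% of all tested probe sets differed that much either way. For the null arrays, 17 differed by 2-fold or more at day 8, 12 had the same direction at day 4 and 1 reached 2-fold there. Over all tested probe sets 0.0266% differed that much between the null arrays of day 4. The largest wild-type difference was 6.11 on the log2 scale, and 3 of the 29 were among the calls between genotypes at day 8, which made up 5.31% of all tested probe sets.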
